A study of Rattus norvegicus with 24 samples.

Results

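ChREBP and SREBP1 are the transcription factors through which liver turns dietary sugar and insulin into fat synthesis, and this account follows them and their targets in the livers of female rats. Of 6 genes listed by name, 4 were found on a probe set whose annotation gives that gene alone: Pnpla3, Thrsp, Pklr and Khk, with 1 probe set each among the 20917 on the array. The genes of the factors themselves are not analysed here: Mlxipl, which encodes ChREBP, was on no probe set named in the annotation used here, and Srebf1, which encodes SREBP1, was only on a probe set annotated to Pemt and Srebf1 together. All 4 measured genes passed the filter on low signal that left 15687 probe sets for testing.

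The samples were livers of adult female Sprague-Dawley rats of the second filial generation, descended from founder males kept on chow or on high-fat food (HFD). Each female was in turn given chow or HFD, the latter with 42/45% of energy from fat in the labels' words, over 12 weeks as an adult. The group names give the grandfather's diet first and the female's own diet second. GpatCD-CD (chow, then chow) held 7 females, GpatCD-HF (chow, then HFD) 6, GpatHF-CD (HFD, then chow) 6 and GpatHF-HF (HFD, then HFD) 5, although the design text speaks of 6 to 7 per group. The labels give no age, litter or father for any female, so the p-values measure only the spread between these samples, and females of 1 litter could not be recognised. The number of arrays limits the precision.

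Titles, sources and tissue labels all say liver, while the growth protocol speaks of gonadal fat. The 6 hepatocyte markers measured, of 7 listed, were bright on every array (Alb, which encodes albumin, 9770 to 13114), and the defining adipocyte markers were dim (Adipoq, which encodes adiponectin, 36.7 to 82.3; Lep, which encodes leptin, 29.3 to 54.3). The summed signal of the 7 adipocyte markers was 1291 to 2039 in GpatCD-CD, 1543 to 2223 in GpatCD-HF, 1588 to 2056 in GpatHF-CD and 1579 to 2016 in GpatHF-HF, most of it from Cidec, a lipid droplet gene that hepatocytes can also express. Arrays are named here by the number in the sample title. Median signal per array ran from 97.9 to 128, with array 34 (GpatCD-HF) the dimmest. On the second principal component, 4 arrays stood apart from the rest: 21 and 25 (GpatCD-CD), 22 (GpatCD-HF) and 24 (GpatHF-HF).

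ChREBP is activated by sugar metabolites and binds, with its partner Mlx, a carbohydrate response element made of a pair of E-box-like motifs. SREBP1c is induced and cut free from its membrane precursor under insulin, through Scap and against Insig, and binds sterol regulatory elements. They act together on lipogenic genes such as Acaca and Acly. Pklr encodes liver pyruvate kinase, the last step of glycolysis and a classical ChREBP target. Khk encodes ketohexokinase, which phosphorylates fructose. Thrsp encodes Spot 14, which promotes fatty acid synthesis. Pnpla3 encodes a lipid droplet protein induced by feeding.

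The upstream sequences of Pklr and Pnpla3 are shown because these genes varied together from animal to animal. Only that of Pklr holds a match to the strict ChREBP pattern used here, in the window searched. Both are RefSeq sequence of the rat build GRCr8 on the plus strand, from 250 to 51 bases before the annotated start: chr2:176841014-176841213 for Pklr and chr7:117173278-117173477 for Pnpla3. The build behind the array files is not given in the sources used here, and these sequences were matched by gene symbol. Capitals mark a carbohydrate response element in Pklr and CCAAT boxes, here read on the minus strand as ATTGG, in Pnpla3.
Pklr: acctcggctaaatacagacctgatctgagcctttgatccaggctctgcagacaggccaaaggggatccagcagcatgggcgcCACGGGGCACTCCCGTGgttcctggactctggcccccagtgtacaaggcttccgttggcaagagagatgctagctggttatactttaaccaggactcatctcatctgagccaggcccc
Pnpla3: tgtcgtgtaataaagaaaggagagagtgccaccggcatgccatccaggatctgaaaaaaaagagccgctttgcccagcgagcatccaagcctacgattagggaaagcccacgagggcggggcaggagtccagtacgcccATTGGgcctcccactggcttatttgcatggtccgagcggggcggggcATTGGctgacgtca

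The search covered windows from 250 bases before to 50 bases after each start, on both strands. The carbohydrate response element was searched as the motifs CACGNG and CNCGTG separated by 5 bases. It was found in 11 of 33469 windows (0.0329%), and Pklr's was 1 of them, starting 168 bases before the start. None of the windows of Pnpla3, Thrsp, Khk, Mlxipl or Srebf1 held it. No window of the 6 genes held the E-box CACGTG (6.42% of all windows) or the sterol regulatory motif TCACNCCAC (1.12%). Pnpla3's CCAAT boxes began 111 and 64 bases before its start, and 37.5% of all windows hold at least 1. A match is a description of the letters, and its absence says only that they are not in this window. The carbohydrate response element was searched as 1 strict pattern, so a site with other letters or spacing would be missed.

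Pnpla3 was the member that varied most between animals. In GpatCD-CD its signal ran from 296 over a median of 739 to 2463, and in GpatCD-HF from 743.5 over 1167 to 5257. In GpatHF-CD it ran from 47.6 over 541 to 3614, a 75.9-fold range within 1 group. The 5 GpatHF-HF females had 4020, 2783, 5153, 2562 and 472. The groups overlapped in every pairing: 4 of these 5 females lay above the GpatHF-CD median, and 1 GpatHF-CD female, array 39, exceeded 3 of them.

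Thrsp was bright and nearly level. Its signal was 5503 to 7599 (median 6521) in GpatCD-CD and 7192 to 8148 (median 7695) in GpatCD-HF. It was 5877 to 8847 (median 7336) in GpatHF-CD, and the 5 GpatHF-HF females had 7471, 7837, 8175, 7257 and 8133. The lowest HFD-fed female of the chow-fed grandfather line exceeded 5 of the 7 chow-fed females of that line, and those groups still overlapped.

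Pklr ran from 2502 over a median of 3628 to 4417 in GpatCD-CD and from 3013 over 3993 to 5865 in GpatCD-HF. It ran from 2617 over 3410 to 4787 in GpatHF-CD, and was 4748, 4137, 4608, 4231 and 3870 in the GpatHF-HF females. All 5 of these lay above the GpatHF-CD median, and none above its highest female.

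Khk ran from 944 over a median of 1739 to 1929 in GpatCD-CD, where array 21 lay far below the next female, at 1536. It ran from 1352 over 1639 to 2005 in GpatCD-HF and from 1590 over 1867 to 2322 in GpatHF-CD, and was 1552, 1786, 1873, 1611 and 1860 in GpatHF-HF. HFD-fed and chow-fed females overlapped in both lines.

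**Figure D1:**
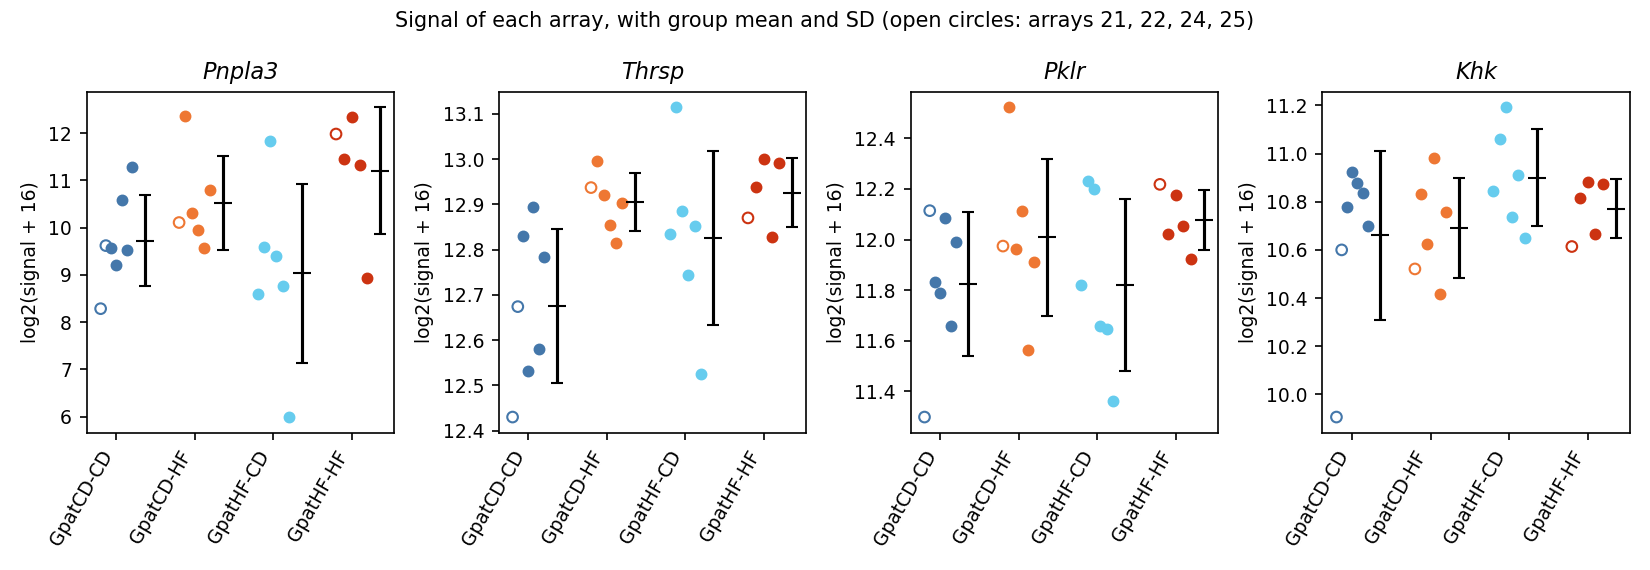
Signal of Pnpla3, Thrsp, Pklr and Khk on a log2(signal + 16) axis, 1 point per array by group, with the group mean and SD in black and a separate vertical scale for each gene; open circles are arrays 21, 22, 24 and 25. The points of every group overlap those of the others, and Pnpla3 spans log2 5.99 to 12.4 while Thrsp spans 12.4 to 13.1.

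Outside GpatHF-HF, the same animal of each group was lowest for all 4 genes. Array 21 was lowest in GpatCD-CD, array 34 in GpatCD-HF and array 42 in GpatHF-CD, each for all 4 genes. In GpatHF-HF array 47 was lowest for Pnpla3 and Pklr, array 46 for Thrsp and array 24 for Khk. Array 47 ranked 4 of 5 from the low end for both Thrsp and Khk. Array 31 was highest in GpatCD-HF for Pnpla3, Thrsp and Pklr, and array 45 was highest in GpatHF-HF for Pnpla3, Thrsp and Khk. In GpatHF-CD array 39 was highest for Pnpla3 and Khk, and array 38 for Thrsp and Pklr. In GpatCD-CD each gene had a different highest array: 30 for Pnpla3, 28 for Thrsp, 25 for Pklr and 27 for Khk. Arrays 21 and 34 were also dim as a whole, with medians of 103 and 97.9, and array 42 had 110. When each array was centred on its median, array 42 was still lowest for all 4 genes and array 21 for 3 of them, but array 34 only for Pnpla3 and Pklr. The part of array brightness in the shared low values was not tested beyond this.

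The first comparison asked whether the females' own HFD changed these genes. None of the 4 passed an adjusted p of 0.05 (limma, Benjamini-Hochberg over 15687 probe sets) in either line, and 1 in each line was under an unadjusted p of 0.05, as were 8.80% and 15.8% of all probe sets. The same test called 0.319% of all probe sets in the chow-fed grandfather line and 0.752% in the HFD-fed grandfather line. Values on this scale are log2(signal + 16), which understates changes of dim probe sets, and ± is the standard error.

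Pnpla3 had the largest own-diet difference of the 4. In the HFD-fed grandfather line its log2 mean was 9.03 ± 1.89 (SD, n = 6) on chow and 11.21 ± 1.33 (SD, n = 5) on the HFD, a difference of 2.18 ± 0.71, or 4.52-fold, with a 95% interval of 0.72 to 3.63. Its unadjusted p was 0.00482 and its adjusted p 0.139 (limma). Without array 39, the chow-fed female with 3614, the difference was 2.74 with a limma adjusted p of 0.0440, and without array 42, the chow-fed female with 47.6, it was 1.57 with one of 0.296. In the chow-fed grandfather line the means were 9.72 ± 0.96 (SD, n = 7) and 10.51 ± 0.99 (SD, n = 6), a difference of 0.79 ± 0.65 (limma adjusted p 0.816).

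The remaining own-diet differences were small. Thrsp was higher by 0.23 ± 0.08 on the HFD in the chow-fed grandfather line (limma adjusted p 0.340) and by 0.10 ± 0.08 in the HFD-fed grandfather line (limma adjusted p 0.567). Pklr was higher by 0.18 ± 0.14 and 0.26 ± 0.16 in the same lines (limma adjusted p 0.798 and 0.416). Khk differed by 0.03 ± 0.13 and -0.13 ± 0.14 (limma adjusted p 0.983 and 0.666), and its sign turned in both lines with the processing.

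Averaged over the lines, this test called 1.99% of all probe sets with own diet, 57 upward and 255 downward, and none of the 4 genes was among them, with 3 of the 4, and 13.3% of all probe sets, under an unadjusted p of 0.05. Pnpla3 differed by 1.48 ± 0.48 (limma adjusted p 0.119), Thrsp by 0.16 ± 0.06 (0.160), Pklr by 0.22 ± 0.11 (0.368) and Khk by -0.05 ± 0.10 (0.881). The call on Pnpla3 turned on single animals: its adjusted p was 0.0282 without array 39 and 0.0416 without array 47, the HFD-fed female with 472. Thrsp passed at 0.0481 when each array was centred on its median, at a difference of 0.21.

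The second comparison asked whether the grandfather's diet mattered. The limma test called 0% of probe sets in females on chow, 0% in females on the HFD and 0% averaged over both, with 1435, 1722 and 1728 probe sets under an unadjusted p of 0.05. The median log2 difference over all tested probe sets was -0.01, -0.10 and -0.05 in these comparisons. Pnpla3 differed by -0.69 ± 0.65 on chow (95% interval -2.03 to 0.64) and by 0.69 ± 0.71 on the HFD (-0.76 to 2.15), which gave 0.00 on average. Without single arrays these ran from -1.25 (without array 39) to -0.09 (without array 42) on chow and from 0.41 (without array 45) to 1.26 (without array 47) on the HFD. Khk was higher by 0.24 ± 0.13 on chow (limma adjusted p 0.589), Thrsp by 0.15 ± 0.08 (0.567), and Pklr differed by -0.0049 ± 0.14. On the HFD, Thrsp differed by 0.02 ± 0.08, Pklr by 0.07 ± 0.16 and Khk by 0.08 ± 0.14. None of the 4 genes passed or was under an unadjusted p of 0.05 in these comparisons.

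Whether own diet acted differently in the lines was asked by the interaction, for which limma called 0% of probe sets (1523 under an unadjusted p of 0.05), although 57 were called without array 28 and 48 without array 22. It was 1.39 ± 0.96 for Pnpla3, with a 95% interval of -0.58 to 3.36 (limma adjusted p 0.639), and 0.78 without array 42. For Thrsp, Pklr and Khk it was -0.13 ± 0.12, 0.07 ± 0.21 and -0.16 ± 0.19. The different sizes of Pnpla3's own-diet differences in the lines were thus not separated by the test, and the interval allows a difference of up to 3.36 log2 units.

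**Figure D2:**
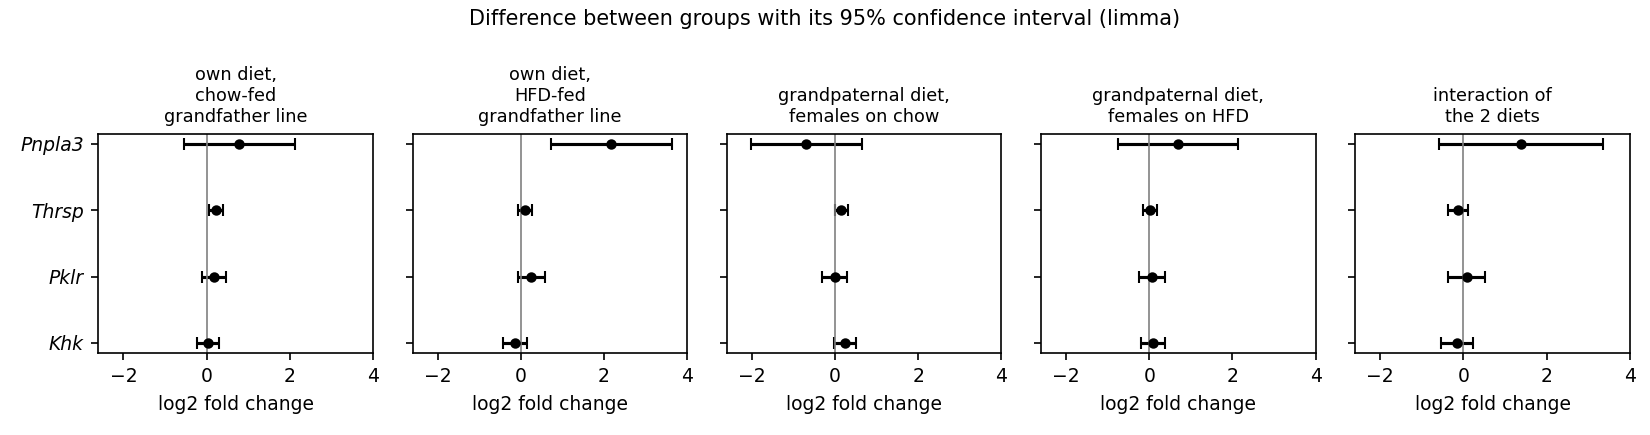
Log2 fold change of the 4 genes (rows) in 5 comparisons (panels), as points with 95% confidence intervals from limma. Pnpla3 has the widest interval in every panel and lies at 2.18 for own diet in the HFD-fed grandfather line, and the other genes stay within 0.3 log2 units of 0.

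Pnpla3 was among the most variable transcripts of these livers once the group means were removed. Its standard deviation within groups was 1.33 log2 units, rank 9 of 15687, where the median of all tested probe sets was 0.192. The 8 probe sets above it were Akr1c2, Cfap95, Serpinb9b, Ubd, Ugt2b, Akr1c1, Mlc1 and 1 without a single gene name. In the 20 arrays without 21, 22, 24 and 25 it ranked 10, with 1.41. Pklr had a within-group standard deviation of 0.283 (rank 2147), Khk 0.246 (rank 3528, or 9297 in the 20 arrays) and Thrsp 0.142 (rank 13504). Thrsp lay near the upper end of signal, where the spread of probe sets narrowed.

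**Figure D3:**
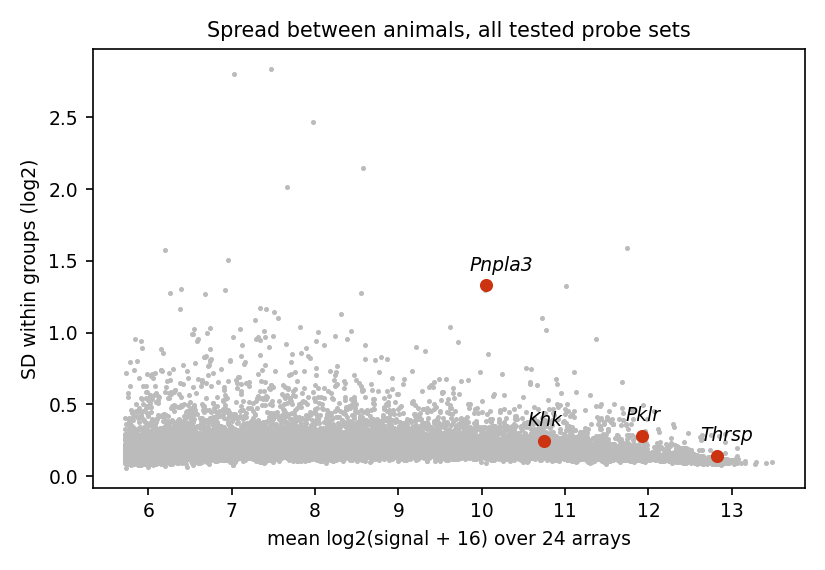
Standard deviation within groups against mean log2(signal + 16) over 24 arrays for each of the 15687 tested probe sets (grey), with the 4 genes in red. Pnpla3 stands at 1.33, far above the band that holds Pklr, Khk and Thrsp.

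The spread between animals was shared. After removal of the group means, all 6 pairs of the 4 genes correlated positively over the 24 arrays, with p-values from 100000 permutations within groups, two-sided, adjusted over the 6 pairs. Pnpla3 and Pklr had r = 0.767 (permutation p 3e-05, adjusted 0.00018) and rho = 0.701 (permutation p 0.00057, adjusted 0.00342). This r was 0.649 without arrays 31 and 42, the 2 farthest from the median of Pnpla3's log2 signal before group means were removed. Arrays 42 and 39 lay farthest from their group mean, at -3.04 and 2.80, and array 39 was kept. For every pair the arrays left out were chosen this way, by the gene named first. Thrsp and Pklr had r = 0.727 (permutation p 0.00024, adjusted 0.00072) and rho = 0.621 (adjusted 0.0112), with 0.560 without arrays 21 and 42. Pklr and Khk had r = 0.658 (permutation p 0.00217, adjusted 0.00434) and rho = 0.544 (adjusted 0.0215), with 0.456 without arrays 21 and 42. In the 20 arrays without the 4 that stood apart these r were 0.778, 0.727 and 0.712, adjusted p 0.00054, 0.00105 and 0.016 by permutation.

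The other pairs were weaker over the 24 arrays. Thrsp and Khk had r = 0.577 (permutation p 0.00671, adjusted 0.0101) and rho = 0.463 (adjusted 0.0389), with r = 0.298 without arrays 21 and 42. Pnpla3 and Thrsp had r = 0.563 (permutation p 0.0156, adjusted 0.0185) and rho = 0.552 (adjusted 0.0168), and 0.345 without arrays 31 and 42. Pnpla3 and Khk had r = 0.457 (permutation p and adjusted p 0.0185) and rho = 0.375 (0.0864), and 0.373 without arrays 31 and 42. In the 20 arrays these r were 0.457, 0.549 and 0.458, with permutation p, adjusted over the 6, of 0.0721, 0.058 and 0.0841. The correlations of the 4 genes with the median signal of the array, over the same animals, were 0.01 for Pnpla3, 0.39 for Thrsp, 0.40 for Pklr and 0.52 for Khk. Centring each array on its median moved the r of Pnpla3 and Pklr to 0.827, that of Thrsp and Pklr to 0.579, that of Pklr and Khk to 0.558 and that of Thrsp and Khk to 0.416.

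To see which other genes varied with them, limma was fitted with each of the 4 genes in turn as a covariate beside the group means, over all other tested probe sets. With Pnpla3, 26 probe sets passed (0.166% of 15686), all with a positive slope. With Pklr 79 passed (0.504%), 78 of them positive. With Khk 906 passed (5.78%), 901 of them positive. This balance of signs moved with the processing: for Khk, quantile normalization gave 209 positive and 208 negative, and median centring 237 and 272. With Thrsp 0% passed by limma, with 1229 under an unadjusted p of 0.05. These fits share their arrays, so their lists are given side by side and are not independent.

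Pnpla3 varied first of all with Pnpla5, a paralogous lipase gene that RefSeq places beside it on chromosome 7 of GRCr8. Pnpla5 was dim: 34.8 to 327 in GpatCD-CD, 136 to 315 in GpatCD-HF, 7.18 to 455 in GpatHF-CD and 44.7 to 389 in GpatHF-HF. In 3 of the groups its lowest array (21, 42 and 47) was also the lowest for Pnpla3, and in 3 its highest (30, 31 and 39) was also the highest. Its r with Pnpla3 was 0.872 (limma slope adjusted p 6.6e-05) and 0.873 in the 20 arrays. Whether probes of one of them also capture the other was not tested.

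Of the 12 lipogenic enzymes tested, 4 varied with Pnpla3: Acaca and Acacb, the acetyl-CoA carboxylases, Acly, ATP citrate lyase, and Scd, a stearoyl-CoA desaturase. Their r were 0.819, 0.791, 0.767 and 0.761, with limma slope adjusted p of 0.00194, 0.00350, 0.00677 and 0.0133. All 12 had r above 0, with a median of 0.61. The share of all probe sets with r above 0 was not computed. The 12 genes listed under sugar entry and glycolysis also include Pgd and Tkt of the pentose phosphate pathway, Fbp1 of gluconeogenesis and Gys2 of glycogen synthesis. Of these 12, 3 varied with Pnpla3: Pgd, Tkt and Slc2a5, which encodes the fructose transporter GLUT5 (r 0.801, 0.749 and 0.752). The glycolytic genes Pfkl, Gpi, Pgk1 and Eno1 did not pass with Pnpla3. Without the 4 arrays that stood apart, the slopes of Pklr and Slc2a5 missed the threshold (limma adjusted p 0.0501 and 0.0566) while their r with Pnpla3, 0.778 and 0.762, were as high as over 24. Calls with Pnpla3 depended on single animals: the 26 probe sets fell to 9 without array 42 and to 13 without array 39. Which of the genes named here kept their calls in those fits was not determined.

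Of the 4 genes, Pklr had the most lipogenic and sugar genes past the slope test, although the median r of the sugar genes was higher with Thrsp. Acaca ran from 1107 to 2082 in GpatCD-CD, 1268 to 2616 in GpatCD-HF, 955 to 2775 in GpatHF-CD and 1675 to 2130 in GpatHF-HF, with r = 0.918 to Pklr (limma slope adjusted p 2.67e-06). In all 4 groups its lowest array was also the lowest for Pklr. Of the 12 lipogenic enzymes 6 passed: Acaca, Acly (r 0.849), Scd (0.847), Gpam, the first enzyme of glycerolipid synthesis (0.765), Elovl6, a fatty acid elongase (0.739), and Acacb (0.706). Of the 12 sugar genes 5 passed: Tkfc, triokinase of fructose breakdown (0.882), Slc2a5 (0.858), Gpi of glycolysis (0.844), Pgd (0.809) and Tkt (0.771). Of these 11, all but Acacb also passed under quantile normalization, under median centring and in the 20 arrays, where Acacb had a limma adjusted p of 0.0900. Its r was at least 0.702 in each of these settings.

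Of 8 other glucose-responsive ChREBP targets, Mid1ip1, a relative of Thrsp that promotes polymerisation of acetyl-CoA carboxylase, passed with Pklr (r 0.691, limma slope adjusted p 0.0499), as did Thrsp itself (0.0499). Both were lost under quantile normalization, median centring and without the 4 arrays, with limma adjusted p of up to 0.151 and 0.550 and r of at least 0.647 and 0.579. None of the 12 genes of SREBP processing and SREBP1c induction varied with any of the 4 genes by this limma test. Neither did any of the 8 genes listed as ChREBP partners or regulators of its locus, called partners below. These were Mlx, Mlxip, Hnf4a, Nr1h3, Nr1h2, Rxra, Ppargc1b and Nr1h4. Some genes stand in both lists, so the counts and medians of these lists are not separate. For Pnpla3, Pklr, Thrsp and Khk in turn, 5.35%, 9.83%, 7.84% and 22.4% of all probe sets were under an unadjusted p of 0.05. Beside these shares, 2, 3, 4 and 6 of the processing genes and 0, 1, 1 and 3 of the partners were under it. Their median r with Pklr were 0.17 and 0.15, beside 0.66 for the lipogenic enzymes and 0.47 for the sugar genes. With Pnpla3 the same 4 medians were -0.06, -0.12, 0.61 and 0.33, with Thrsp 0.36, 0.22, 0.46 and 0.50, and with Khk 0.43, 0.34, 0.45 and 0.43. The lists thus stood far apart for Pnpla3 and Pklr, less for Thrsp and little for Khk. The median r over all probe sets was not computed, so these medians are compared only with each other.

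**Figure D4:**
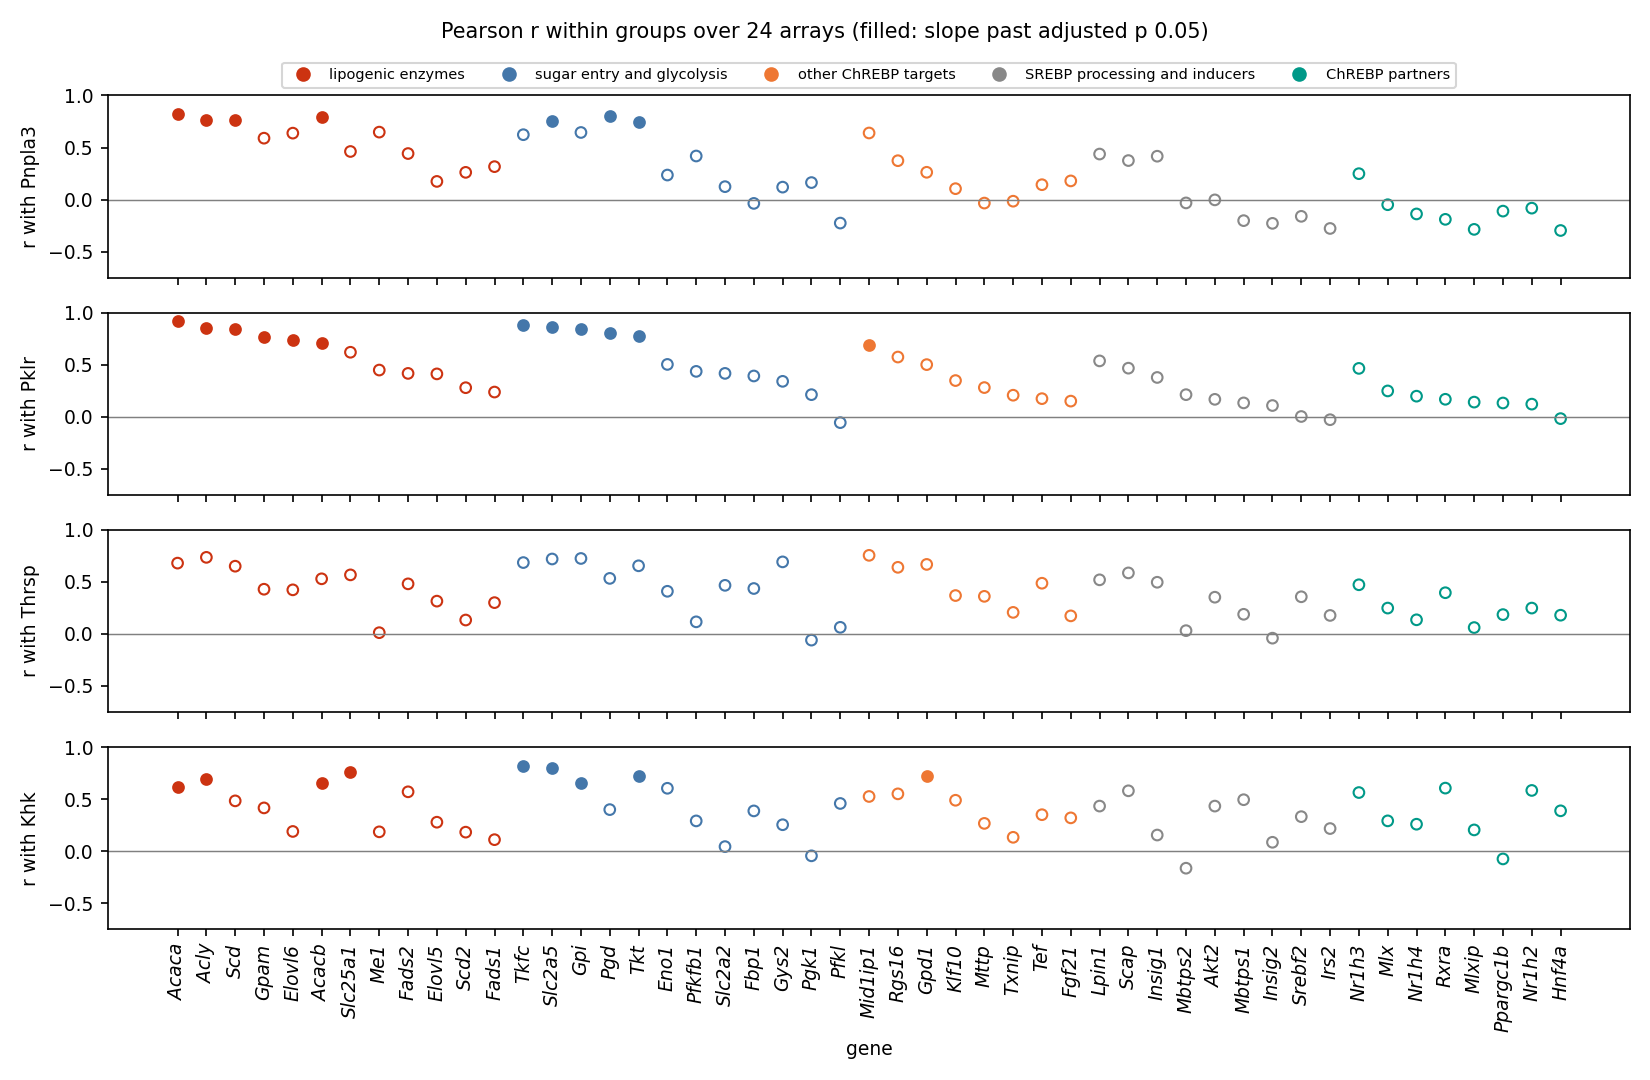
Pearson r over 24 arrays, group means removed, between each listed gene (columns, ordered within its list by r with Pklr) and Pnpla3, Pklr, Thrsp or Khk (rows); filled circles passed the limma slope test. Filled circles stand among the lipogenic and sugar genes for Pnpla3, Pklr and Khk. Among the other ChREBP targets, Mid1ip1 is filled for Pklr and Gpd1 for Khk. There are none for Thrsp and none among the SREBP processing genes or the ChREBP partners, a list that also holds regulators of the ChREBP locus. A gene in more than 1 list is drawn once.

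The calls with Khk depended on 1 animal. The 906 probe sets fell to 0 when array 21, with the lowest Khk, was left out, and to 0 without the 4 arrays that stood apart. With it, 9 genes of the pathway lists and Pklr passed, led by Tkfc (r 0.818) and Slc2a5 (r 0.797), which act beside Khk in fructose handling. In the 20 arrays these r were still 0.776 and 0.731, with limma adjusted p of 0.222 for both. The part of array 21's low brightness in the 906 calls was not tested separately.

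The closest companions of each gene among 12721 named genes, by r over 24 arrays, are a description with no test. Pnpla3 came with Pnpla5, Flrt1, Kif4b, Acaca and Fabp5 (r 0.872 to 0.812). Pklr came with Dlat, a subunit of the pyruvate dehydrogenase complex (0.923), Acaca, Odad4, Tkfc and Acsl5, an acyl-CoA synthetase (0.867). Dlat was lowest on arrays 21, 34 and 42 and highest on arrays 30, 31, 39 and 24, each within its group. Thrsp came with Pdhb, another pyruvate dehydrogenase subunit (0.787), Arg1, Leap2, Bhlhe40 and Mid1ip1 (0.755). Khk came with Rpusd3, Nfkb2, Neil1, Cul9 and Man2c1 (0.907 to 0.853), and the last 3 of these were at 0.664, 0.618 and 0.670 in the 20 arrays.

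**Figure D5:**
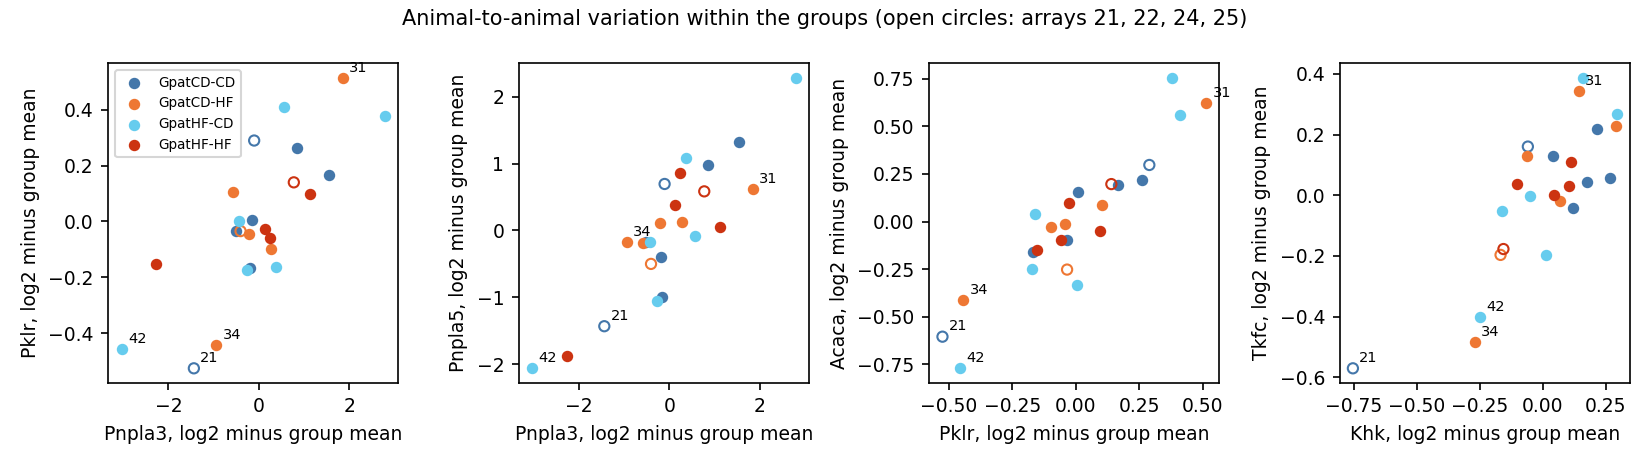
Log2 signal minus the group mean, 1 point per array, for Pklr against Pnpla3, Pnpla5 against Pnpla3, Acaca against Pklr and Tkfc against Khk; open circles are arrays 21, 22, 24 and 25, and arrays 21, 31, 34 and 42 are numbered. Arrays 21 and 42 lie at the low end of each panel, and array 21 stands alone at the low end of Khk.

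Cell type markers were run through the same slope test. With Pnpla3, Pklr and Thrsp none of 37 passed in limma, where 6 were hepatocyte, 7 adipocyte, 8 Kupffer cell and macrophage, 4 cholangiocyte, 5 acinar pancreas, 3 endothelial and 4 stellate markers. Under an unadjusted p of 0.05 were 3, 5 and 8 of them, beside 5.35%, 9.83% and 7.84% of all probe sets. With Thrsp no probe set of any kind passed, so that result says nothing about the markers. The 6 hepatocyte markers had a median r of 0.56 with Thrsp, all 6 above 0 and 5 under an unadjusted p of 0.05. Their median r was -0.0082 with Pnpla3 and 0.33 with Pklr. With Khk, Cfd and Clec4f passed, and neither did without the 4 arrays that stood apart. Array 31, highest for Pnpla3 in the study at 5257, also had the highest Adipoq (82.3), Plin1 (101) and Fabp4 (137), and array 39 had the highest Epcam (148). The other 4 of the 7 adipocyte markers were highest on arrays 26, 32, 22 and 28 (Lep, Cidec, Retn and Cfd). Array 31 was also highest for the cholangiocyte markers Krt19 and Sox9, the stellate markers Rgs5 and Col1a1, and the hepatocyte markers Ahsg and Serpina1. The part of these cells in Pnpla3's level was not tested, and in whole tissue a change in cell numbers and a change in RNA per cell cannot be told apart.

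The wider pathway showed few changes with own diet. Of the 12 genes of SREBP processing and SREBP1c induction, 2 fell when own diet was averaged over the lines: Srebf2, which encodes the sterol-responsive SREBP2, by 0.47 ± 0.10 (limma adjusted p 0.0114), and Insig1, which holds SREBPs in the endoplasmic reticulum, by 0.44 ± 0.10 (limma adjusted p 0.0209). Srebf2 signal was 1075 to 1641 and 1155 to 1624 in the chow-fed groups of the chow and HFD grandfather lines, against 837 to 1431 and 698 to 1318 in the HFD-fed groups, so the groups overlapped. Insig1 was 3774 to 5742 and 3275 to 4914 against 2164 to 4381 and 2358 to 3872, and its adjusted p was 0.0509 without array 44. Scap, their escort protein, was at -0.30 ± 0.08 (limma adjusted p 0.0514). The list's median was -0.14 beside -0.03 over all probe sets. In the HFD-fed grandfather line alone all 12 were below 0 but none passed (4 under an unadjusted p of 0.05), where the median over all probe sets was -0.09 and 15.8% were under that p, and with quantile normalization 9 of 12 were below 0.

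No lipogenic enzyme passed in limma in any of the 7 comparisons. Over the 12 enzymes and 7 comparisons, 8 values were under an unadjusted p of 0.05, beside 8.80% to 15.8% of all probe sets per comparison. With own diet averaged over the lines, the median of the 12 was -0.05, beside -0.03 for all probe sets. Of the 12, 2 were under an unadjusted p of 0.05, as were 13.3% of all probe sets. In the HFD-fed grandfather line, Scd2, a desaturase, ran from 204 to 1270 on chow and from 705 to 2862 on the HFD, a difference of 2.02 ± 0.55 (limma adjusted p 0.0775), against -0.52 ± 0.51 in the chow-fed grandfather line (interaction 2.54 ± 0.75, limma adjusted p 0.267). None of the 12 sugar genes, 8 ChREBP partners or 8 other ChREBP targets passed in any of the 7 comparisons. Over those comparisons, beside the same shares of all probe sets, 1, 3 and 12 of their values were under an unadjusted p of 0.05. Among them Txnip, a glucose-responsive inhibitor of thioredoxin, was at -0.42 ± 0.11 with own diet averaged over the lines (limma adjusted p 0.0514).

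Of Pnpla3's family, 4 of 6 listed genes were measured and 3 tested, and none passed in limma in the 7 comparisons. Over these 3 genes and 7 comparisons, 5 values were under an unadjusted p of 0.05, beside 8.80% to 15.8% of all probe sets per comparison. Pnpla2, the adipose triglyceride lipase that acts on lipid droplets beside Pnpla3, was at -0.59 ± 0.15 with own diet in the HFD-fed grandfather line (limma adjusted p 0.0563), where Pnpla3 was at 2.18. Its signal was 1057 to 1729 in GpatHF-CD and 780 to 1101 in GpatHF-HF. Pnpla5 was at 1.21 ± 0.58 in that comparison (limma adjusted p 0.312).

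Some genes listed as markers of other cell types moved with own diet in the same samples. In the average over the lines, limma called 1.99% of all probe sets, 57 upward and 255 downward. The median log2 difference over all probe sets was -0.03. Averaged over the lines, the Kupffer cell gene Marco fell by 1.16 log2 units, Cd5l fell by 0.70 and Vsig4 fell by 0.55 (limma adjusted p 6.93e-05, 0.00731 and 0.0393), and all 8 markers of that list were below 0. Their summed signal was 4840 to 8181 in GpatCD-CD, 2770 to 5045 in GpatCD-HF, 3851 to 7005 in GpatHF-CD and 3513 to 5802 in GpatHF-HF. The adipocyte marker Fabp4 rose by 0.62 (limma adjusted p 0.0412), 1 of 7, while Adipoq was at 0.10 and Plin1 at 0.10. Epcam, 1 of 4 in the cholangiocyte list, fell by 0.55, Cpa1, 1 of 5 in the acinar list, fell by 1.43, and Rgs5, 1 of 4 in the stellate list, rose by 0.57 (limma adjusted p 0.00330, 0.0263 and 0.0390). No other marker of these 3 lists passed, and 2 of the 4 cholangiocyte and 2 of the 5 acinar markers were above 0. Cpa1 signal ran from 124 to 8083, while the other acinar markers tested were dim on every array. These were Cela1 (29.9 to 47.4), Cela2a (31.3 to 49.2), Ctrb1 (44.0 to 72.0) and Cel (33.5 to 58.4). Whether Cpa1 marks acinar cells in these livers was not tested. Their part in the values of Srebf2, Insig1 or Pnpla3 was not tested.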

How the data were processed

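RNA of 24 livers was hybridised to Affymetrix arrays, 1 per female, from 200 ng each per the labels. The deposited values are linear intensities, summarised per probe set by the authors; the submitters' processing notes name PLIER and Affymetrix Expression Console. Versions, normalization options and genome build were not stated in the labels or headers. Each intensity was put on the log2(value + 16) scale from the deposited table, and the dimmest 25% of probe sets by mean were dropped. All 24 arrays were fitted in limma 3.58.1 (R 4.3.3) with 4 group means, eBayes with trend and Benjamini-Hochberg adjustment, at a threshold of 0.05. Of 20917 probe sets, 18197 carried 1 gene symbol, 960 several and 1760 none in the annotation used, and 18052 of the first matched RefSeq. A listed gene with several probe sets was read from the brightest. Named genes are the members, listed genes past the threshold or among the 4 smallest p of their list, and the 5 closest companions of each member. The members and gene lists were chosen with earlier results of these data known, and the slope test was added after the data were seen. Alternatives were quantile normalization, median centring, offsets of 1 and 50, no filter or one of 50%, eBayes without trend or robust, the contrast's own groups alone, the 4 arrays that stood apart left out or as a covariate, and each array left out. The fits were tested on simulated data.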

Additional observations from a re-analysis of the deposited data

Results flagged for a closer look

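Khk in GpatCD-CD had 1 female far from the others: array 21, at a signal of 944, lay below the next female by 0.681 of the group's whole range, above the Dixon limit of 0.568 for 7 values. The 16 combinations of gene and group were checked this way, chance marks about 1 in 20 such groups, and this was the 1 result marked. Array 21 was also lowest of its group for Pnpla3, Thrsp and Pklr, and all of the 906 probe sets called with Khk were lost without it.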

How the results depend on the processing

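The 28 fold changes of the 4 genes were recomputed under 968 alternatives: 921 kept direction and call, 43 turned sign and 4 gained the threshold, and each that turned sign was past no threshold in either setting. Quantile normalization gave Khk 0.016 (own diet, HFD-fed grandfather line), 0.0030 (interaction) and 0.014 (own diet averaged), and Thrsp 0.036 (interaction). Median centring gave Pklr 0.035 for the grandfather's diet on chow. Pnpla3 for the grandfather's diet averaged over own diets, at 0.00, was -0.030 with an offset of 1, -0.29 without the 4 arrays that stood apart and -0.048 with them as a covariate. Without those arrays Khk was at -0.10 (own diet, chow-fed grandfather line; -0.015 as a covariate) and 0.011 (interaction), and Pklr at -0.012 (grandfather's diet averaged). Leaving out 1 array at a time, ranges that crossed 0 were -0.097 to 0.083 for Khk (own diet, chow-fed grandfather line), -0.28 to 0.30 for Pnpla3 (grandfather's diet averaged), and for Pklr -0.012 to 0.084 (grandfather's diet averaged), -0.093 to 0.086 (on chow), -0.019 to 0.17 (on the HFD) and -0.016 to 0.18 (interaction). The number of the 4 genes past the threshold went from 0 to 1 with own diet averaged under median centring (Thrsp), and ranged from 0 to 1 there and in the HFD-fed grandfather line without single arrays (Pnpla3, without array 39, and averaged also without array 47). Of listed genes, Insig1 lost its call without array 44.

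Probe sets varying with Pnpla3, against 26, numbered 15 without the 4 arrays and 9 (without array 42) to 29 without single arrays, with 13 without array 39 and 17 without array 31. Those with Thrsp, against 0, numbered 10 under quantile normalization, 1 under median centring, and 0 to 4 without single arrays. Those with Pklr, against 79, numbered 40 under median centring, 42 without the 4 arrays, and 36 (without array 31) to 88 without single arrays, with 39 without array 21 and 43 without array 34. Those with Khk, against 906, numbered 417 under quantile normalization, 509 under median centring, 0 without the 4 arrays, and 0 (without array 21) to 1334 without single arrays, with 463 without array 28. Over all probe sets, own-diet calls in the chow-fed grandfather line were 89 under quantile normalization and 79 under median centring against 50, and in the HFD-fed grandfather line 77 without the 4 arrays and 56 (without array 42), 58 (45), 65 (37), 69 (24) and 72 (44) without single arrays, against 118. Own diet averaged had 470 without array 21 against 312. Against 0, the interaction had 57 without array 28 and 48 without array 22. For the grandfather's diet, also against 0, calls were at most 1 on chow (quantile normalization, or without array 41), 4 on the HFD (without array 34) and 7 averaged (without array 34, with 4 under the 50% filter or robust eBayes and 2 without the 4 arrays or with them as a covariate). No paired analysis was possible because the groups share no replicate numbers. Why these values moved was not tested.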
